A study of Homo sapiens with 12 samples.

Results

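The mRNA levels of 8 genes of the ErbB system were examined in SNU449 cells, a human hepatocellular carcinoma cell line, namely the ligands AREG, EREG, HBEGF, TGFA, BTC and NRG1 and the feedback inhibitors ERRFI1 and LRIG1. They were found by exact gene name, and all 8 were among the 15601 genes of the table that holds every library. The cells fall into 4 groups. SNU449 control cells carry wild-type Axl and were naive to Regorafenib (Rego), an inhibitor of several kinases. Rego-resistant SNU449 cells had been grown in increasing Rego up to 2 times the IC50. SNU449-Axl- control cells lack Axl, a receptor tyrosine kinase, after CRISPR/Cas9 editing and were likewise naive. Rego-resistant SNU449-Axl- cells had been adapted by the same procedure. Each group is represented by 3 libraries from 1 cell population that the study calls technical triplicates, so that the p-values cover the spread between libraries, and a difference between groups cannot be told apart from a difference between populations. Whether the SNU449-Axl- line is 1 clone was not given in the sources used here. The study's methods do not state whether Rego was present when RNA was taken from the resistant cells. Drug exposure and acquired resistance thus cannot be told apart.

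ErbB receptors comprise EGFR, ErbB2, ErbB3 and ErbB4. Most of their ligands are made as membrane-anchored precursors and shed by metalloproteases. AREG, TGFA and EGF bind EGFR, whereas EREG, HBEGF and BTC bind EGFR and ErbB4, and NRG1 binds ErbB3 and ErbB4. ERRFI1 (MIG6) is induced by receptor signaling and blocks the kinase domain, and LRIG1 is a transmembrane protein that lowers receptor levels. In the liver, ligands of EGFR are known for their part in regeneration.

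AREG and EREG are neighbors on chromosome 4 and were the members with the largest log2 fold changes between groups, so their upstream sequences are shown here. This order holds on the scale of the library values, which compresses weakly expressed genes such as TGFA. In the GRCh38 coordinates of the files, EREG (ENSG00000124882.4) lies on the plus strand of chromosome 4 from 74365145 to 74388749, and AREG (ENSG00000109321.11) lies on the same strand from 74445136 to 74455005, with 79991 bases between the start sites. BTC (ENSG00000174808.12) follows on the minus strand from 74744759 to 74794523. Of the other members, HBEGF (ENSG00000113070.8) lies on chromosome 5 from 140332843 to 140346603, TGFA (ENSG00000163235.16) on chromosome 2 from 70447284 to 70554193, ERRFI1 (ENSG00000116285.13) on chromosome 1 from 8004404 to 8026309 and LRIG1 (ENSG00000144749.14) on chromosome 3 from 66378797 to 66501263, all on the minus strand. Of the 8 members, 7 were matched to the RefSeq promoter table on GRCh38.p14, and NRG1 was not. The 250 bases before the start of AREG (chr4:74444886-74445135, plus strand) and of EREG (chr4:74364895-74365144, plus strand) are given 5′ to 3′. Capitals mark matches on either strand to the cAMP response element TGACGTCA, its core TGACG, the TATA motif TATAAA and the TEAD motif GGAATG.
AREG: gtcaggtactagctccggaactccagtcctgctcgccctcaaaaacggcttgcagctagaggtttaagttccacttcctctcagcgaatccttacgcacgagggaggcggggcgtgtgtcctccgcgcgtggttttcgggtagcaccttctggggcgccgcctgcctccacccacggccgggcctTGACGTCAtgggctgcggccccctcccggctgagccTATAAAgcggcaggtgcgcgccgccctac
EREG: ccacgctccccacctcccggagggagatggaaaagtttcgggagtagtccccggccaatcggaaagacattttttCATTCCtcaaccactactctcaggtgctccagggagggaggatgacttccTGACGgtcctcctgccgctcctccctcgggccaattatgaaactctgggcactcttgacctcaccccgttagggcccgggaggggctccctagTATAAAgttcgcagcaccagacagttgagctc
The AREG window held TGACGTCA at 65 to 58 bases before the start, and this match contains TGACG on each strand. TATAAA was found at 29 to 24 bases before the start of AREG and at 32 to 27 bases before that of EREG. The EREG window held TGACG at 125 to 121 bases and, on the opposite strand, GGAATG at 175 to 170 bases before the start. Of all 35116 promoter windows of this length in the table, 1.65% held TGACGTCA, 21.2% TGACG, 10.7% TATAAA and 11.9% GGAATG. The other 5 matched members, searched in all of their windows, held neither TATAAA nor TGACGTCA nor GGAATG, whereas 1 of the 2 TGFA windows held TGACG. The AP-1 motif TGANTCA, found in 6.57% of all windows, was absent from the AREG and EREG windows and occurred in 1 of the 4 windows of LRIG1. These matches are descriptions of the letters, not sites of binding.

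Each library value is a rounded whole number that the authors derived from a variance-stabilized count level after removing a preparation effect. These values have a minimum of 12 and are compressed at low counts, which makes the log2 fold change of a weakly expressed gene understate its change. Comparisons were made by limma on the log2(value + 1) scale with the replicate number as a block. A gene was called where its p, adjusted by Benjamini-Hochberg over all 15601 genes, was under 0.05. Where the libraries of a group are said to lie above or below all others, this is a description. The share of all genes with such a separation is not given here. In addition, the mean normalized count of each group was solved from the means that the authors give for 6 pairs of groups and for all libraries. This count has neither a replicate error nor a test. Over 14476 genes, the solved counts missed the authors' means by a median of 0.468%. The read depth per library is unknown, and the mean normalized counts of the tables sum to between 4156995 and 4914889.

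As a check of the labels, AXL was read at 727, 941 and 715 in SNU449 control cells and at 1237, 815 and 1271 in Rego-resistant SNU449 cells. In SNU449-Axl- cells it was read at 35, 53 and 33 in control and at 50, 38 and 52 in Rego-resistant cells, with log2 fold changes of -4.29 (limma, adjusted p = 2.16e-09) and -4.52 (limma, adjusted p = 1.27e-09) against SNU449 cells of the same treatment. The place of the edit relative to the sequenced 3′ end was not given in the sources used here. Of 9 hepatocyte markers only 3 were listed among the genes, without ALB, HNF4A or TTR, whereas all 5 mesenchymal markers were, with VIM at 13759 to 27044. Of 5 leukocyte markers 2 were listed, PTPRC with an authors' mean normalized count of 1.12 and CD14 with 5.34, and none of 4 endothelial markers was. In bulk RNA, fewer cells that express a gene and less RNA per cell cannot be told apart.

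**Figure D1:**
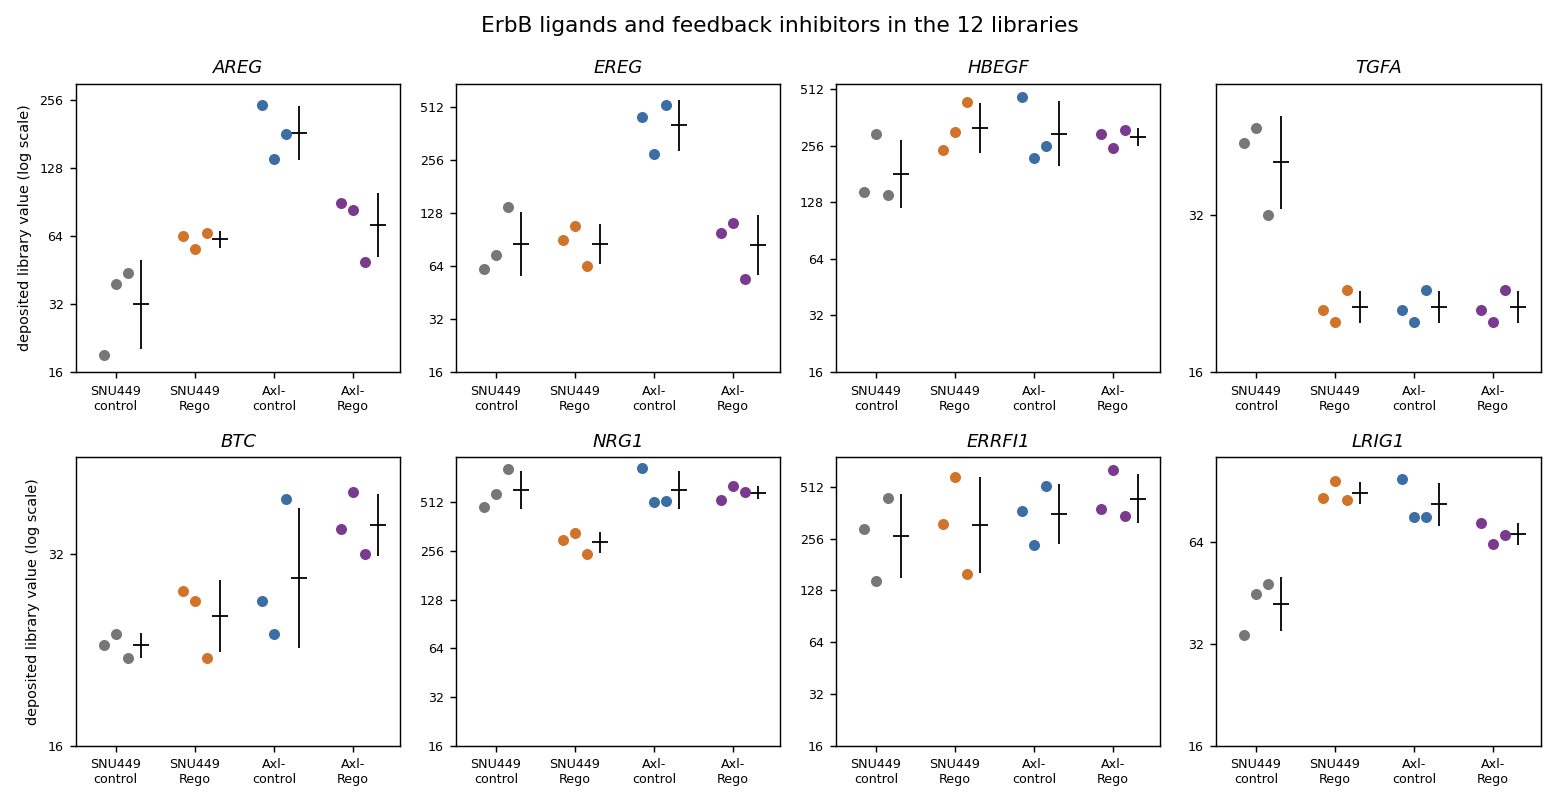
Deposited library value (log axis, no unit) of each member in the 4 groups, with 1 point per library in the order of the replicate numbers and, beside them, the mean and SD on the log2 scale (n = 3). AREG and EREG stand highest in SNU449-Axl- control cells, LRIG1 lowest in SNU449 control cells and NRG1 lowest in Rego-resistant SNU449 cells, while TGFA shows the same 3 values, 21, 20 and 23, in 3 of the groups.

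Loss of Axl was accompanied by higher AREG and EREG in control cells, and acquired Rego resistance by lower AREG and EREG only where Axl was absent, as tested by the difference of the Rego effects. AREG encodes amphiregulin, a ligand of EGFR with a heparin-binding domain. Its library values were 19, 39 and 44 in SNU449 control and 64, 56 and 66 in Rego-resistant SNU449 cells, against 241, 140 and 180 in the SNU449-Axl- control and 89, 83 and 49 in the Rego-resistant SNU449-Axl- cells. The SNU449-Axl- control libraries were thus above all others, and the SNU449 control libraries were below all others. The mean levels were 5.05 ± 0.63, 5.97 ± 0.12, 7.52 ± 0.39 and 6.18 ± 0.46, respectively (log2, SD, n = 3). AREG was higher with Axl loss in control cells by a log2 fold change of 2.47 (SE 0.295, limma, adjusted p = 4.43e-05), which remained called with each of the 12 libraries left out, at 1.99 to 2.77. AREG was lower upon Rego resistance in SNU449-Axl- cells, with a log2 fold change of -1.34 (SE 0.295, limma, adjusted p = 0.0135). This call was lost without SNU449-Axl- control replicate 1 (-1.08, limma, adjusted p = 0.0739) or 3 (-1.35, limma, adjusted p = 0.0515) and without Rego-resistant SNU449-Axl- replicate 3 (-0.99, limma, adjusted p = 0.111). In SNU449 cells the AREG libraries of the control and resistant groups did not overlap, and the share of all genes without overlap is not given here. The log2 fold change of AREG upon Rego resistance in SNU449 was 0.93 and was not called (SE 0.295, limma, adjusted p = 0.0631). Without the replicate block it passed the threshold at the same size (limma, adjusted p = 0.0397), as it did without SNU449 control replicate 3 (1.23, limma, adjusted p = 0.025), SNU449-Axl- control replicate 1 (limma, adjusted p = 0.0457) or Rego-resistant SNU449-Axl- replicate 3 (limma, adjusted p = 0.0433). Without SNU449 control replicate 1, whose value of 19 was the lowest, it was 0.44 (limma, adjusted p = 0.364). Between the resistant groups the log2 fold change with Axl loss was 0.20 (SE 0.295, limma, adjusted p = 0.782). The Rego effect in SNU449 exceeded that in SNU449-Axl- cells by 2.27 on the log2 scale (SE 0.418, interaction term, limma, adjusted p = 0.00303).

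In the order of AREG levels, SNU449-Axl- control cells were above Rego-resistant SNU449 cells (log2 difference of the latter -1.55, limma, adjusted p = 0.00473), and Rego-resistant SNU449-Axl- cells were above SNU449 control cells (1.13, limma, adjusted p = 0.0239). The former call was kept with each of the 12 libraries left out, whereas the latter was lost without SNU449 control replicate 1 (0.64, limma, adjusted p = 0.172), without replicate 1 or 2 of the Rego-resistant SNU449-Axl- cells (0.93 and 0.98) and in the table of the pair (0.76, limma, adjusted p = 0.0584). The neighbors in the middle, Rego-resistant SNU449-Axl- and Rego-resistant SNU449 cells, did not differ beyond their spread. The solved mean normalized counts of AREG were 4.45 in SNU449 control and 27.7 in Rego-resistant SNU449 cells, against 188 in the SNU449-Axl- control and 65.7 in the Rego-resistant SNU449-Axl- cells, with a root mean square error of 2.4 counts, so that the lowest of them is the least certain. Between the resistant groups the solved count was 2.37 times as high without Axl, a ratio that has no test.

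EREG encodes epiregulin. It was read at 62, 74 and 138 in SNU449 control and 90, 108 and 64 in Rego-resistant SNU449 cells, against 453, 279 and 526 in the SNU449-Axl- control and 99, 113 and 54 in the Rego-resistant SNU449-Axl- cells. Every SNU449-Axl- control library was above the libraries of the other 3 groups, which overlapped one another. The mean levels were 6.44 ± 0.60, 6.43 ± 0.38, 8.67 ± 0.48 and 6.42 ± 0.56, respectively (log2, SD, n = 3). EREG was higher with Axl loss in control cells by a log2 fold change of 2.22 (SE 0.326, limma, adjusted p = 0.000338), and it was lower upon Rego resistance in SNU449-Axl- cells, with a log2 fold change of -2.25 (SE 0.326, limma, adjusted p = 0.000452). In SNU449 cells its log2 fold change upon Rego resistance was -0.01 (SE 0.326, limma, adjusted p = 0.995), and between the resistant groups it was -0.01 (limma, adjusted p = 0.991). The Rego effects differed by 2.24 (SE 0.46, interaction term, limma, adjusted p = 0.00685). All 3 calls were kept with each of the 12 libraries left out. In solved mean normalized counts, EREG stood at 58.1 in SNU449 control and 47 in Rego-resistant SNU449 cells, against 433 in the SNU449-Axl- control and 91.5 in the Rego-resistant SNU449-Axl- cells, with a root mean square error of 4.69 counts. Between the resistant groups the solved count was thus 1.95 times as high without Axl, unlike the library values. This ratio has no test, and the cause of the disagreement was not tested. Over the 12 libraries, the log2 levels of AREG and EREG had a Pearson r of 0.846, and their deviations from the group means had an r of 0.696. These libraries share their groups and the removal of the preparation effect, and the values are given as a description.

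HBEGF encodes a heparin-binding ligand of EGFR and ErbB4. It was read at 146, 294 and 140 in SNU449 control and 242, 302 and 439 in Rego-resistant SNU449 cells, against 465, 219 and 255 in the SNU449-Axl- control and 296, 250 and 310 in the Rego-resistant SNU449-Axl- cells. SNU449 control replicate 2 lay among the libraries of the other groups, while replicates 1 and 3 were below all of them. No comparison was called, with log2 fold changes of 0.80 upon Rego resistance in SNU449 (SE 0.307, limma, adjusted p = 0.129) and 0.70 with Axl loss in control cells (SE 0.307, limma, adjusted p = 0.189). Without SNU449 control replicate 2 these were 1.26 (limma, adjusted p = 0.0183) and 1.16 (limma, adjusted p = 0.0297) and were called. At the other end, the former was 0.49 without Rego-resistant SNU449 replicate 3 and the latter 0.27 without SNU449-Axl- control replicate 1. Upon Rego resistance without Axl, HBEGF had a log2 fold change of -0.06 (SE 0.307, limma, adjusted p = 0.95). The interaction term was 0.86 (SE 0.434, limma, adjusted p = 0.291). The solved mean normalized counts of HBEGF were 156 in SNU449 control and 286, 341 and 317 in Rego-resistant SNU449, SNU449-Axl- control and Rego-resistant SNU449-Axl- cells.

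TGFA encodes transforming growth factor alpha, a ligand of EGFR. It was weakly expressed, with an authors' mean normalized count of 3.46 over the 12 libraries. Its values were 44, 47 and 32 in SNU449 control cells and, by replicate number, 21, 20 and 23 in each of the other 3 groups. The SNU449 control libraries were thus above all others, and the identical values show that the scale holds no difference among the remaining groups. TGFA fell with a log2 fold change of -0.90 upon Rego resistance in SNU449 (SE 0.18, limma, adjusted p = 0.00402) and of -0.90 with Axl loss in control cells (SE 0.18, limma, adjusted p = 0.00452). With spike-in centring the latter was -0.58 and not called (limma, adjusted p = 0.0747). The interaction term of -0.90 (SE 0.254, limma, adjusted p = 0.0443) was kept in only 1 of the 12 fits that left out a library, that without SNU449 control replicate 3, and the adjusted p was up to 0.127 in the others (limma). In both SNU449-Axl- groups TGFA was near the bottom of the scale, so a further fall could not be read there. This term therefore cannot show a dependence on Axl. The solved mean normalized counts of TGFA were 13 in SNU449 control and 0 in Rego-resistant SNU449 cells, against 0.83 in the SNU449-Axl- control and 1.17 in the Rego-resistant SNU449-Axl- cells, and no fold is given against such levels. Their root mean square error was 0.185 counts. The library values were the same in the 3 groups solved at 0, 0.83 and 1.17, so these counts are not read as different levels. TGFA was not listed in 3 of the 6 tables of pairs of groups, all of which lack the SNU449 control libraries.

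BTC encodes betacellulin. Its lower coordinate lies 299623 bases from the start of AREG, and it was near the bottom of the scale, with an authors' mean normalized count of 3.87. Its values were 23, 24 and 22 in SNU449 control and 28, 27 and 22 in Rego-resistant SNU449 cells, against 27, 24 and 39 in the SNU449-Axl- control and 35, 40 and 32 in the Rego-resistant SNU449-Axl- cells. None of the comparisons was called. The log2 fold change was 0.61 between Rego-resistant SNU449-Axl- and SNU449 control cells (SE 0.197, limma, adjusted p = 0.0725) and 0.46 with Axl loss in Rego-resistant cells (SE 0.197, limma, adjusted p = 0.214). In both comparisons the libraries of the 2 groups did not overlap, and the share of all genes without overlap is not given here. With spike-in centring, which moves all genes in the latter comparison by 0.46, BTC was at 0.92 in it (limma, adjusted p = 0.00407). The solved mean normalized counts of BTC were 0.439, 0.784, 4.5 and 9.75 in the same order of groups, from as many tables as groups and thus without a check of their error.

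NRG1 (ENSG00000157168.20) encodes neuregulin 1, the ligand of ErbB3 and ErbB4, and was the member with lower values in Rego-resistant SNU449 cells than in every other group. It was read at 480, 573 and 826 in SNU449 control and 298, 331 and 245 in Rego-resistant SNU449 cells, against 831, 517 and 525 in the SNU449-Axl- control and 531, 645 and 596 in the Rego-resistant SNU449-Axl- cells. The 3 libraries of Rego-resistant SNU449 cells were below the other 9, and the share of all genes with such a separation is not given here. The mean levels were 9.26 ± 0.40, 8.18 ± 0.22, 9.25 ± 0.39 and 9.20 ± 0.14, respectively (log2, SD, n = 3). NRG1 fell upon Rego resistance in SNU449 cells, with a log2 fold change of -1.08 (SE 0.234, limma, adjusted p = 0.00728), a call that was lost without SNU449 control replicate 3 (-0.79, limma, adjusted p = 0.0557) or Rego-resistant SNU449 replicate 3 (-0.92, limma, adjusted p = 0.0556). In SNU449-Axl- cells the log2 fold change of NRG1 was -0.05 (SE 0.234, limma, adjusted p = 0.946), and with Axl loss in control cells it was -0.003 (limma, adjusted p = 0.999). Among resistant cells, NRG1 was higher without Axl by 1.02 (SE 0.234, limma, adjusted p = 0.0171). The latter call was lost without any 1 library of Rego-resistant SNU449-Axl- cells, and without replicate 1 or 3 of Rego-resistant SNU449 cells, with adjusted p up to 0.118 (limma). The difference between the Rego effects was -1.03 and was not called (SE 0.332, interaction term, limma, adjusted p = 0.0784). Without the replicate block it passed the threshold (limma, adjusted p = 0.0374), as it did without SNU449 control replicate 1 (-1.26, limma, adjusted p = 0.0404) or SNU449-Axl- control replicate 1 (-1.33, limma, adjusted p = 0.0166). Solved mean normalized counts of NRG1 were 609 in SNU449 control and 207 in Rego-resistant SNU449 cells, against 655 in the SNU449-Axl- control and 652 in the Rego-resistant SNU449-Axl- cells.

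**Figure D2:**
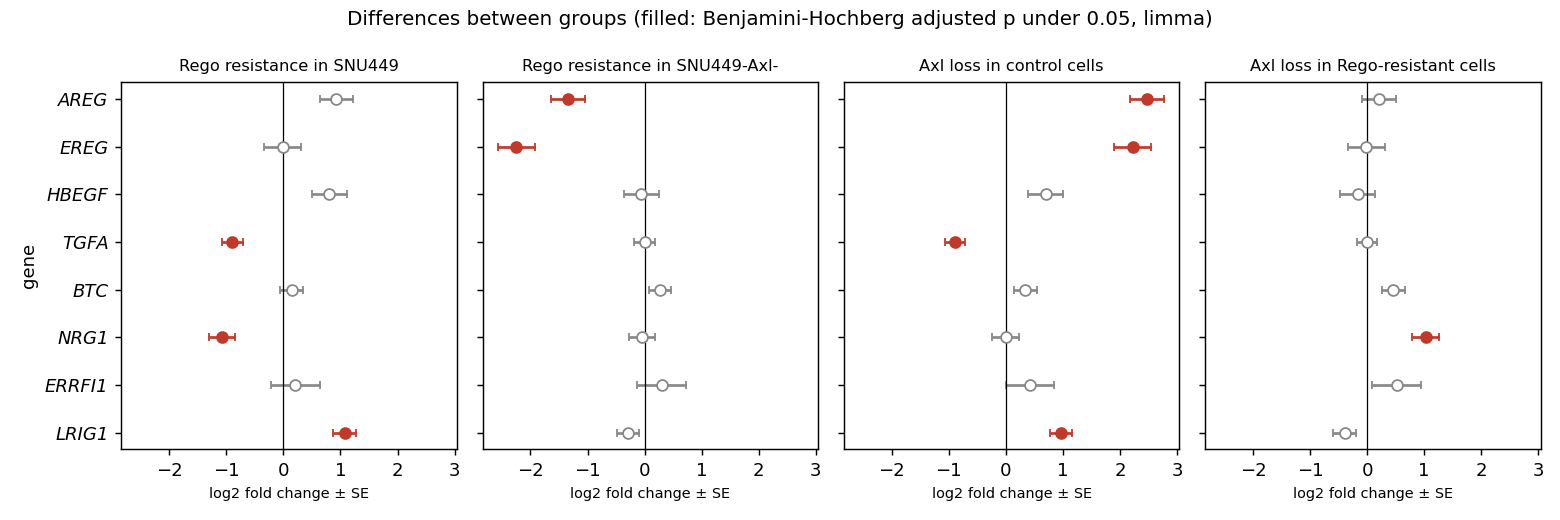
Log2 fold change (x axis) with its standard error for each member (y axis) in the 4 comparisons, with filled points for an adjusted p under 0.05 from limma. AREG and EREG are the only members past 2 in size, at 2.47 and 2.22 with Axl loss in control cells, and EREG at -2.25 upon Rego resistance in SNU449-Axl- cells.

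Of the feedback inhibitors, LRIG1 was higher in the 3 other groups than in SNU449 control cells, and ERRFI1 was not called in any comparison. LRIG1 was read at 34, 45 and 48 in SNU449 control and 86, 97 and 85 in Rego-resistant SNU449 cells, against 98, 76 and 76 in the SNU449-Axl- control and 73, 63 and 67 in the Rego-resistant SNU449-Axl- cells. The control libraries of SNU449 were below all others. The mean levels of LRIG1 were 5.42 ± 0.26, 6.50 ± 0.10, 6.39 ± 0.21 and 6.10 ± 0.11, respectively (log2, SD, n = 3). LRIG1 rose by a log2 fold change of 1.07 upon Rego resistance in SNU449 cells (SE 0.199, limma, adjusted p = 0.00207) and by 0.97 with Axl loss in control cells (SE 0.199, limma, adjusted p = 0.0053). Without Axl, resistance to Rego gave LRIG1 a log2 fold change of -0.29 (SE 0.199, limma, adjusted p = 0.474), and Axl loss among resistant cells one of -0.40 (SE 0.199, limma, adjusted p = 0.304). The libraries did not overlap in either comparison, and the share of all genes without overlap is not given here. The Rego effects differed by 1.36 (SE 0.281, interaction term, limma, adjusted p = 0.00709). These 3 calls of LRIG1 were kept with each of the 12 libraries left out. Rego-resistant SNU449-Axl- cells were also above SNU449 control cells by 0.68 (SE 0.199, limma, adjusted p = 0.0458), a call kept in only 4 of the 12 fits that left out a library (0.48 without SNU449 control replicate 1, limma, adjusted p = 0.226). It was lost in the table of the pair (0.453, limma, adjusted p = 0.0723) and in the other 12-library table (0.645, limma, adjusted p = 0.0519). It was also lost with upper-quartile rescaling (0.669, limma, adjusted p = 0.0518) and a pseudocount of 10 (0.578, limma, adjusted p = 0.0527). By contrast, Rego-resistant SNU449 and SNU449-Axl- control cells differed by 0.11 (limma, adjusted p = 0.819). In solved mean normalized counts, LRIG1 stood at 12.9 in SNU449 control and at 59.5, 61.3 and 46.2 in Rego-resistant SNU449, SNU449-Axl- control and Rego-resistant SNU449-Axl- cells.

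ERRFI1 was read at 291, 145 and 441 in SNU449 control and 310, 582 and 160 in Rego-resistant SNU449 cells, against 371, 234 and 522 in the SNU449-Axl- control and 381, 642 and 345 in the Rego-resistant SNU449-Axl- cells. All groups overlapped. The library of replicate 2 was the lowest in both control groups and the highest in both resistant groups. After the removal of the preparation effect, a replicate number that is low in some groups has to be high in others. This order is therefore a description. The SDs were 0.81, 0.93, 0.58 and 0.48 (log2, n = 3), and the 4 log2 fold changes lay between 0.21 and 0.51 (SE 0.425, limma, adjusted p = 0.587 to 0.833). The solved mean normalized counts of ERRFI1 were 244, 353, 370 and 548 in SNU449 control, Rego-resistant SNU449, SNU449-Axl- control and Rego-resistant SNU449-Axl- cells.

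Counted over the members, 3 of 8 were called upon Rego resistance in SNU449 cells, TGFA and NRG1 lower and LRIG1 higher, where 7.81% of all genes tested were called. In SNU449-Axl- cells 2 of 8 were called, AREG and EREG, both lower, against 4.35% of all genes. With Axl loss in control cells 4 of 8 were called, AREG, EREG and LRIG1 higher and TGFA lower, against 7.45%. With Axl loss in resistant cells 1 of 8 was called, NRG1, against 4.37%, and by the interaction term 4 of 8 were called, AREG, EREG, LRIG1 and TGFA, against 5.87%. Of these, TGFA was near the bottom of the scale in both SNU449-Axl- groups, so its term cannot show a dependence on Axl. The median log2 fold changes of the 6 ligands in these 5 comparisons were 0.07, -0.05, 0.52, 0.10 and 0.37, against 0.00, 0.01, 0.00, 0.01 and -0.01 over all genes. Comparisons that share a group, such as both that use SNU449 control cells, are not independent of one another, and TGFA and LRIG1, with opposite signs, were called in both.

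**Figure D3:**
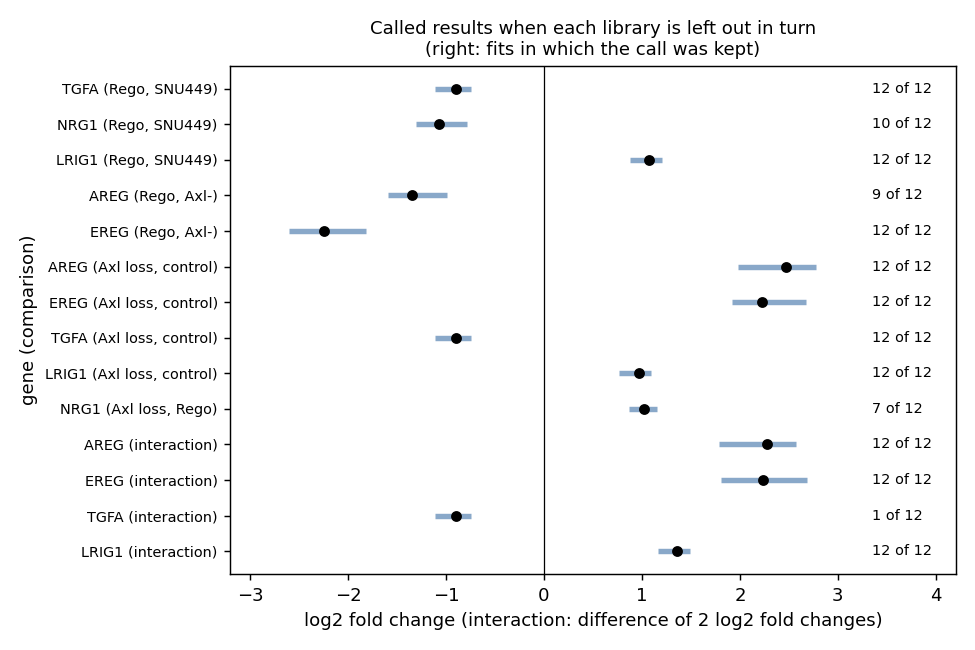
Log2 fold changes (points) of the members called in the 5 comparisons, with the range over the fits that leave out 1 of the 12 libraries (bars) and, at the right, the number of those fits in which the gene was still called. Every range stays on its side of 0, and the call was kept in 1 of 12 fits for the TGFA interaction, 7 for NRG1 with Axl loss in resistant cells, 9 for AREG upon Rego resistance in SNU449-Axl- cells and 10 for NRG1 upon Rego resistance in SNU449.

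Among the receptors to which these ligands bind, ERBB4 was called. It was read at 23, 23 and 21 in SNU449 control and 41, 53 and 52 in Rego-resistant SNU449 cells, against 35, 28 and 28 in the SNU449-Axl- control and 32, 31 and 34 in the Rego-resistant SNU449-Axl- cells. ERBB4 was weakly expressed, with an authors' mean normalized count of 8.02 over the 12 libraries. Its solved mean normalized counts were 0 in SNU449 control and 20.2 in Rego-resistant SNU449 cells. They were 4.26 in the SNU449-Axl- control and 7.16 in the Rego-resistant SNU449-Axl- cells, and no fold is given against such levels. ERBB4 rose by a log2 fold change of 1.08 upon Rego resistance in SNU449 (SE 0.18, limma, adjusted p = 0.000806), and this call was kept with each of the 12 libraries left out. Its Rego effects differed by 0.99 between the backgrounds (SE 0.254, limma, adjusted p = 0.0265), a call kept in 6 of these 12 fits. It was lost without SNU449 control replicate 3, without replicate 2 or 3 of Rego-resistant SNU449 cells, without SNU449-Axl- control replicate 1 (0.85, limma, adjusted p = 0.0833) and without replicate 1 or 2 of Rego-resistant SNU449-Axl- cells, and also with spike-in centring (0.84, limma, adjusted p = 0.168). Of the ligands of ErbB4, NRG1 was lower upon Rego resistance in SNU449, and EREG, HBEGF and BTC were not called in that comparison. EGFR, ERBB2 and ERBB3 were not called in any of the 5 comparisons, with EGFR at log2 levels of 9.24 ± 0.44, 9.73 ± 0.30, 9.27 ± 0.20 and 9.69 ± 0.07 (SD, n = 3) in SNU449 control, Rego-resistant SNU449, SNU449-Axl- control and Rego-resistant SNU449-Axl- cells.

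The other ErbB ligands EGF, EPGN, NRG2, NRG3 and NRG4 were not listed among the 15601 genes. Of 15 further negative regulators of the receptors, 14 were tested. Among them PTPN1, a phosphatase that acts on receptor tyrosine kinases, fell with log2 fold changes of -1.11 upon Rego resistance in SNU449 (limma, adjusted p = 0.00169) and -1.02 with Axl loss in control cells (limma, adjusted p = 0.00393), and no other was called in any of the 5 comparisons. Both calls of PTPN1 were kept with each of the 12 libraries left out. The count of 1 in 14 is close to the 7.81% and 7.45% of all genes called in these comparisons. The median of this list was -0.06 and 0.13 in these comparisons, against 0.00 over all genes in each.

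Of 14 genes for ligand shedding and release, 13 were tested, and the number called was 1 upon Rego resistance in SNU449 and 2 in SNU449-Axl- cells, 1 with Axl loss in control cells and 0 in resistant cells and by the interaction term, against 7.81%, 4.35%, 7.45%, 4.37% and 5.87% of all genes. ADAM19, which can cleave neuregulin, fell by 2.58 on the log2 scale upon Rego resistance in SNU449-Axl- cells (limma, adjusted p = 0.000687), from 318, 889 and 1133 to 142, 101 and 102, and this call was kept with each of the 12 libraries left out. The calls of the other genes of this list were lost when certain libraries were left out. ADAM12, a metalloprotease that can cleave HBEGF, fell by 1.54 upon Rego resistance in SNU449 (limma, adjusted p = 0.013), although its SNU449 control value of 257 in replicate 3 overlapped the resistant libraries at 186, 110 and 297. Its call was lost without SNU449 control replicate 1 (-1.31, limma, adjusted p = 0.0771) or 2 (-1.07, limma, adjusted p = 0.128), without Rego-resistant SNU449 replicate 2 (-1.06, limma, adjusted p = 0.121) and in the table of the pair (-1.41, limma, adjusted p = 0.0844). NRDC, an enhancer of HBEGF shedding, had a log2 fold change of -0.70 upon Rego resistance in SNU449-Axl- cells (limma, adjusted p = 0.0408) and RHBDF2, a partner of the sheddase ADAM17, one of 0.73 with Axl loss in control cells (limma, adjusted p = 0.041), each called in only 5 of the 12 fits that left out a library. Both calls were also lost in the tables of the pairs (limma, adjusted p = 0.0646 and 0.121). Spike-in centring ended that of NRDC (limma, adjusted p = 0.177) and upper-quartile rescaling that of RHBDF2 (limma, adjusted p = 0.0511). ADAM17 and ADAM10, the main sheddases of these ligands, were not called in any of the 5 comparisons.

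All 16 genes of ERK feedback and early response were tested. SPRY2, a feedback inhibitor of the Ras and ERK pathway, was read at 93, 72 and 79 in SNU449 control and at 258, 249 and 194 in Rego-resistant SNU449 cells, and at 121, 124 and 186 and at 140, 184 and 144 in SNU449-Axl- control and Rego-resistant cells. It rose by 1.51 upon Rego resistance in SNU449 (limma, adjusted p = 0.000239), with an interaction term of 1.37 (limma, adjusted p = 0.0117), and both calls were kept with each of the 12 libraries left out. Its log2 fold change of 0.79 with Axl loss in control cells (limma, adjusted p = 0.0325) was called in 8 of these fits. This call was also lost in the table of the pair (0.65, limma, adjusted p = 0.0794). ETV5, a transcription factor induced by ERK, was read at 127, 146 and 123 in SNU449-Axl- control cells and at 53 to 88 in the other libraries. Its log2 fold change was 1.0 with Axl loss in control cells (limma, adjusted p = 0.0053), a call lost without SNU449-Axl- control replicate 2 (0.90, limma, adjusted p = 0.0517). It was -0.85 upon Rego resistance in SNU449-Axl- cells (limma, adjusted p = 0.0236) and 1.05 for the interaction term (limma, adjusted p = 0.0385), called in 7 and 3 of the 12 fits, respectively. Spike-in centring ended both of these calls (limma, adjusted p = 0.119 and 0.157). FOSL1, a subunit of AP-1, fell by 0.92 upon Rego resistance in SNU449 (limma, adjusted p = 0.00858), a call lost without SNU449 control replicate 2 or 3 (limma, adjusted p = 0.0607 in each) and in the table of the pair (-0.80, limma, adjusted p = 0.0513). With Axl loss in control cells its log2 fold change was -0.73 (limma, adjusted p = 0.0378), and that of DUSP5, an ERK phosphatase, was 1.19 with Axl loss in resistant cells (limma, adjusted p = 0.0313), each called in 7 of the 12 fits. The call of FOSL1 with Axl loss was also lost in the table of the pair (limma, adjusted p = 0.117) and with spike-in centring (limma, adjusted p = 0.232). The number called of the 16 was thus 2 upon Rego resistance in SNU449 and 1 in SNU449-Axl- cells, 3 with Axl loss in control cells, 1 in resistant cells and 2 by the interaction term, against 7.81%, 4.35%, 7.45%, 4.37% and 5.87% of all genes. The medians of the list were 0.00, -0.14, 0.27, 0.06 and 0.13, against 0.00, 0.01, 0.00, 0.01 and -0.01 over all genes.

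Of 32 adaptors and effectors of the receptors, 31 were tested, and 2, 3, 1, 0 and 2 of them were called in the 5 comparisons, in the order and against the shares given for the ERK genes. STAT3, a transcription factor activated by receptor kinases, rose by 1.54 upon Rego resistance in SNU449 (limma, adjusted p = 4.87e-05), which was kept with each of the 12 libraries left out. Its log2 fold changes of 0.70 upon Rego resistance in SNU449-Axl- cells (limma, adjusted p = 0.0444) and 0.67 with Axl loss in control cells (limma, adjusted p = 0.0395) were called in 5 and 4 of these fits. Both of these calls were lost in the tables of the pairs (limma, adjusted p = 0.0597 and 0.0809). MAP2K2, which encodes the ERK kinase MEK2, rose by 0.80 upon Rego resistance in SNU449 (limma, adjusted p = 0.0128), with an interaction term of 1.14 (limma, adjusted p = 0.016), each called in 9 of the 12 fits. The former was lost without SNU449 control replicate 2 (0.70, limma, adjusted p = 0.0849) and without replicate 2 or 3 of Rego-resistant SNU449 cells. It was also lost in the table of the pair (0.76, limma, adjusted p = 0.055), and the interaction call of MAP2K2 with spike-in centring (0.99, limma, adjusted p = 0.0886). SRC had a log2 fold change of 1.06 (limma, adjusted p = 0.019) with resistance to Rego in SNU449-Axl- cells and ARAF one of -0.75 (limma, adjusted p = 0.0371), called in 8 and 7 of the fits, and the interaction term of SRC was -1.39 (limma, adjusted p = 0.0223), called in 7. Spike-in centring ended the call of ARAF (-0.56, limma, adjusted p = 0.189).

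AREG and EREG lie in a stretch of chromosome 4 that also holds CXC chemokine genes. In a window of 1 Mb on each side of AREG, which was chosen after values in it had been seen, 13 genes were tested. Apart from AREG and EREG, 3 of the other 11 were called with Axl loss in control cells, against 7.45% of all genes. All 3 were higher, namely CXCL1 (0.95, limma, adjusted p = 0.017), CXCL5 (1.30, limma, adjusted p = 0.00913) and PARM1 (1.36, limma, adjusted p = 0.00128). Of the same 11, 1 was called upon Rego resistance in SNU449, 1 in SNU449-Axl- cells and 2 with Axl loss in resistant cells. The shares of all genes called there were 7.81%, 4.35% and 4.37%. Since the window was set around AREG, these counts are a description. CXCL5 was higher in each of the 4 comparisons, by 1.26 upon Rego resistance in SNU449 (limma, adjusted p = 0.0101) and 1.12 in SNU449-Axl- cells (limma, adjusted p = 0.0342), where EREG and AREG were lower, and by 1.15 with Axl loss in resistant cells (limma, adjusted p = 0.0283). PARM1 was higher also with Axl loss in resistant cells, by 2.05 (limma, adjusted p = 3.34e-05), where AREG and EREG were not called. With each of the 12 libraries left out, PARM1 kept both of its calls, whereas CXCL1 kept its call in 8 fits and CXCL5 in 10, 8, 11 and 8 fits of Rego resistance in SNU449 and SNU449-Axl- cells and Axl loss in control and resistant cells. The call of CXCL1 was also lost in the table of the pair (0.72, limma, adjusted p = 0.0762). Without SNU449 control replicate 1, CXCL5 was at 1.01 with Axl loss in control cells (limma, adjusted p = 0.0798) and at 0.98 upon Rego resistance in SNU449 (limma, adjusted p = 0.0771). MTHFD2L, which lies between the chemokine genes and EREG, was not called, with log2 fold changes of -0.25 to -0.02. The CXCL genes are near-identical in part, and how the counting split reads between them was not tested.

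**Figure D4:**
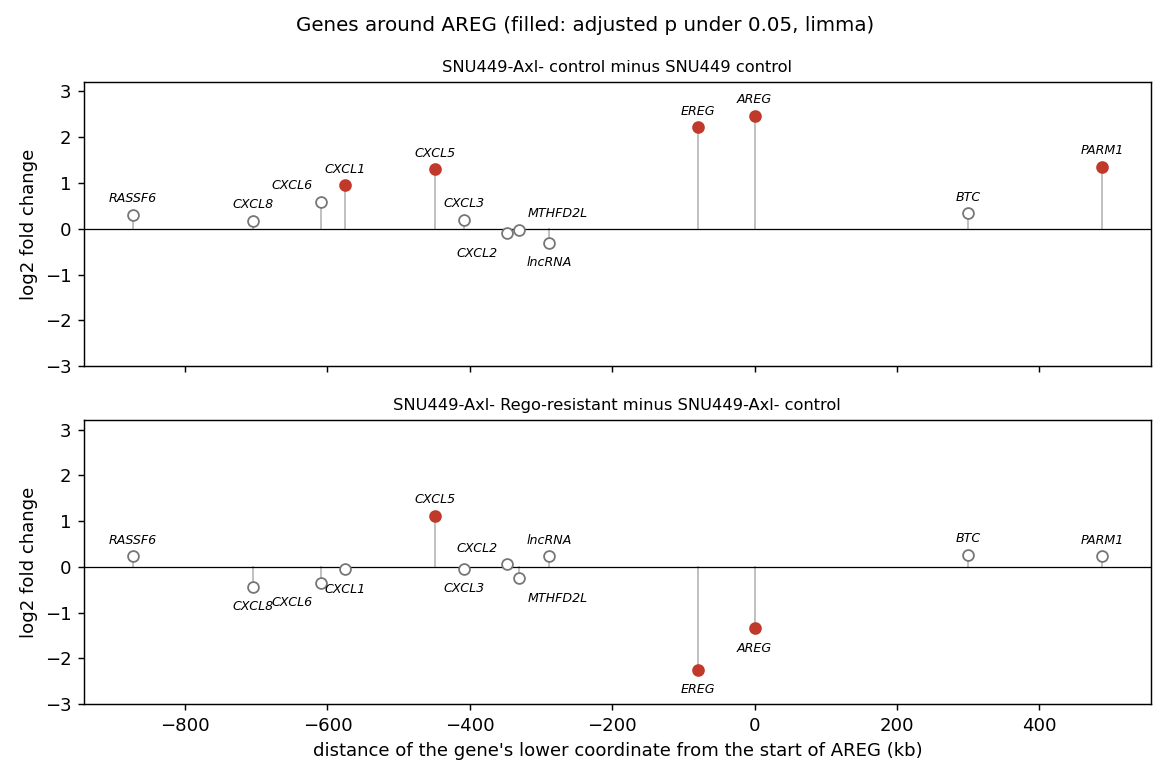
Log2 fold change (y axes) of the 13 tested genes around AREG by the distance of their lower coordinate from the start of AREG in kb (x axis), for Axl loss in control cells (upper panel) and Rego resistance in SNU449-Axl- cells (lower panel), with filled points for an adjusted p under 0.05 from limma. AREG and EREG change sign between the panels, from 2.47 and 2.22 to -1.34 and -2.25, while CXCL5 stands at 1.30 and 1.12.

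The genes whose levels were most like those of a member over the 12 libraries were taken from 8189 genes with a mean normalized count of at least 50. For AREG these included DAP3 (Pearson r = 0.951) and HHEX (0.929), and for EREG they were SELENOS (0.973), HHEX (0.948) and AKR1B1 (0.947). HBEGF was most like C17orf80 (0.935), USP4 (0.891) and LAMTOR2 (0.879). NRG1 was most like RPL15 (0.971), PPARG (0.942) and RPL35A (0.93), and ERRFI1 most like TMEM135 (0.921), CRBN (0.91) and SRP14 (0.91). HHEX is the gene that AREG and EREG have in common in these lists. TGFA, BTC and LRIG1 were below the minimum count and were not compared. The libraries share their groups and scaling, so these values describe the pattern of levels.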

How the data were processed

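3′-end mRNA libraries (QuantSeq) of 12 samples, 3 for each of 4 groups, had been sequenced for the study. Reads were trimmed with cutadapt 4.0 and aligned to GRCh38 with STAR 2.5.3a, per the labels and the study's methods, and counted per gene with spike-in RNAs. The authors removed weakly expressed genes and deposited 8 tables, of which 6 hold 2 groups each and 2 hold all 12 libraries. The deposited library columns are scores made by the authors, who stabilized the variance of the counts on a log2 scale and subtracted the effect of preparation date. The return to a linear scale and the rounding were read from the values. The deposited mean normalized count of a gene is a signal, the average of counts divided by size factors over the libraries of a table. Columns of the authors' DESeq2 comparisons (log2 fold change, its standard error, p-value and adjusted p-value) were not used.

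The 12-library table that compares the Axl backgrounds was analysed in R 4.3.3 by limma 3.58.1, using lmFit and eBayes with a trend (two-sided) on log2(value + 1), with group and replicate number as terms, after the 32 spike-in RNAs were left out. The removed effect follows the replicate number, since the mean of a number over the groups deviated by a median of 0.00126 on the log2 scale, against 0.122 for a library. Same-numbered libraries therefore deviated in opposite directions, with r of -0.485 to -0.091 over 18 pairs, and 6 residual degrees of freedom remained. The fit was run on simulated data with known changes and did not recover all of the changed genes. A result that was not called is therefore not shown to be unchanged. Group counts were solved by non-negative least squares. Depth per library is unknown, and the number of libraries limits the precision.

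The members and lists were chosen with earlier results of these data known. Named were all members, AXL, the 4 receptors, at most 3 called genes with the largest change per list and comparison, and, for members with a mean normalized count of at least 50, the 3 most correlated genes, of which 1 is not reported here. ADAM10, ADAM17, MTHFD2L, CXCL1, CXCL5 and PARM1 were named after their values were seen. Coordinates are those of the files. Alternatives were no block, the tables of pairs, the other 12-library table, 2 other scalings, a filter at a mean normalized count of 30, a pseudocount of 0 or 10, no trend and each library left out.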

Additional observations from a re-analysis of the deposited data

Results flagged for a closer look

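The effect of Rego resistance differed between SNU449 and SNU449-Axl- cells by the interaction term of the fit for 4 members. The log2 fold change in SNU449 minus that in SNU449-Axl- cells was 2.27 for AREG (SE 0.418, limma, adjusted p = 0.00303), which stood at 0.93 and -1.34 in the backgrounds. It was 2.24 for EREG (SE 0.46, limma, adjusted p = 0.00685), at -0.01 and -2.25. For LRIG1 it was 1.36 (SE 0.281, limma, adjusted p = 0.00709), at 1.07 and -0.29. For TGFA it was -0.90 (SE 0.254, limma, adjusted p = 0.0443), at -0.90 and 0, and leaving out 1 library ended this call in 11 of 12 cases, the exception being SNU449 control replicate 3. TGFA had the same values in 3 of the groups, near the bottom of the scale, so a further fall without Axl could not be read. Its term cannot show a dependence on Axl. All 4 differences use the SNU449 control and SNU449-Axl- control libraries, and groups of 3 libraries were not tested for single outlying libraries.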

How the results depend on the processing

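Without the replicate block, more genes were called in each comparison, 2175 upon Rego resistance in SNU449 (1219 with the block), 1552 in SNU449-Axl- cells (678), 2182 with Axl loss in control cells (1163), 1503 in resistant cells (682) and 1826 by the interaction term (916), and among the members this pairing changed the call of AREG in SNU449 and of the NRG1 interaction. The tables of pairs called 603 genes upon Rego resistance in SNU449, 603 with Axl loss in control cells and 1160 in resistant cells. Spike-in centring called 2471 with Axl loss in control and 5234 in resistant cells, since it shifted all genes by 0.04, 0.19, 0.31, 0.46 and -0.15 in the 5 comparisons, and it brought past the threshold HBEGF (1.01, limma, adjusted p = 0.0387) and BTC (0.65, limma, adjusted p = 0.0411) in the former and BTC (0.92) and ERRFI1 (0.97, limma, adjusted p = 0.0434) in the latter. With 1 library left out, the counts ranged from 740 to 1299, 205 to 891, 540 to 1275, 219 to 826 and 523 to 922. No called value changed its sign. Of those not called, EREG upon Rego resistance in SNU449 was 0.002 in the table of the pair and 0.033 with spike-in centring. Spike-in centring also turned HBEGF (0.13) and NRG1 (0.14) upon Rego resistance in SNU449-Axl- cells, NRG1 (0.31) with Axl loss in control cells, and EREG (0.45), HBEGF (0.30) and LRIG1 (0.064) in resistant cells. Leaving out a library turned the sign, over a range, upon Rego resistance in SNU449 for EREG (-0.32 to 0.44) and ERRFI1 (-0.40 to 0.83), and in SNU449-Axl- cells for HBEGF (-0.35 to 0.37), NRG1 (-0.21 to 0.25) and ERRFI1 (-0.11 to 0.66). It did so with Axl loss in control cells for NRG1 (-0.30 to 0.29) and ERRFI1 (-0.15 to 0.91), and in resistant cells for AREG (-0.002 to 0.56), EREG (-0.29 to 0.41), HBEGF (-0.42 to 0.15) and ERRFI1 (-0.11 to 1.13). The interaction terms of BTC (-0.39 to 0.07) and ERRFI1 (-0.70 to 0.54) did likewise. The causes of these changes were not tested. TGFA and BTC have no value at a mean normalized count of at least 30 and in the pair tables that lack them.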

Other observations

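Other marker genes that were examined as a check of the cells moved with the groups as well. FN1, which encodes the mesenchymal matrix protein fibronectin, was read at 2491, 1437 and 2923 in SNU449 control, 336, 453 and 650 in Rego-resistant SNU449, 559, 377 and 463 in SNU449-Axl- control and 2543, 4850 and 1351 in Rego-resistant SNU449-Axl- cells. It fell by 2.24 upon Rego resistance in SNU449 (limma, adjusted p = 0.000686) and rose by 2.47 in SNU449-Axl- cells (limma, adjusted p = 0.000544), with an interaction term of -4.71 (limma, adjusted p = 3.44e-05), and these calls were kept with each of the 12 libraries left out. The other mesenchymal markers VIM, CDH2, ZEB1 and SPARC were not called in any of the 5 comparisons.

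FGB, a fibrinogen chain made by hepatocytes, was read at 189, 547 and 294 in Rego-resistant SNU449-Axl- cells and at 16 to 72 in the other libraries, with a log2 fold change of 2.49 upon Rego resistance in SNU449-Axl- cells (limma, adjusted p = 0.000805) and 3.44 with Axl loss in resistant cells (limma, adjusted p = 2.9e-05). AFP, alpha-fetoprotein, with an authors' mean normalized count of 4.26, had a log2 fold change of 0.67 with Axl loss in control cells (limma, adjusted p = 0.0297), called in 6 of the 12 fits that left out a library, whereas both calls of FGB were kept in all 12. The call of AFP was also lost in the table of the pair (0.45, limma, adjusted p = 0.0793). Summed over FGB, AFP and APOA1, the library values were 67 to 92 in SNU449 control, 72 to 85 in Rego-resistant SNU449, 98 to 133 in SNU449-Axl- control and 249 to 606 in Rego-resistant SNU449-Axl- cells. APOA1, with an authors' mean normalized count of 1.14, was read at 19 to 31 and, like AFP, was near the bottom of the scale. The higher sum in Rego-resistant SNU449-Axl- cells was thus that of FGB. KRT8, an epithelial keratin, was higher with Axl loss, by 1.58 in resistant cells (limma, adjusted p = 0.000248), kept in all 12 fits, and by 0.79 in control cells (limma, adjusted p = 0.0332), kept in 7. The sum of KRT8 and KRT18 was 826 to 1321, 905 to 1527, 1135 to 1602 and 1515 to 2134 in the same order of groups, and CDH1, EPCAM and KRT19 were not listed. The part of these genes in the levels of the ErbB ligands was not tested.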
